A study of Acartia tonsa with 26 samples.

Results

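A set of 150 transcripts was abundant in cleaving eggs of the calanoid copepod Acartia tonsa and low by gastrulation, among 9502 rows of a table of genes from a de novo assembly. The members were chosen from deposited values on group means. The 3 h mean had to be at least 5 and at least 4 times the 7 h mean, and the mean of quiescent eggs had to be under 2 times the 7 h mean. Of 827 rows with a 3 h mean of at least 5, 286 met the condition on 7 h and 157 of these the condition on quiescent eggs. Another 7 were left out by domain (linker histone, lectin, trypsin, lipase, reverse transcriptase or ankyrin), which left 150.

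The libraries were made from whole batches of eggs. Quiescent eggs (3 libraries) were sampled at 26 h after cold (4 °C) and lack of oxygen had stopped them at gastrulation. Subitaneous eggs, which develop without a pause, were kept at 16.9 °C and sampled at 3 h (4 to 16 cells, 5 libraries), 7 h (gastrulation, 5), 14 h (organogenesis, 4), 24 h (appendages forming, 4) and 42 h (nauplii about to hatch, 5). The labels call the replicates technical. The p-values below therefore measure the spread between such samples and not between independent cultures.

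Animal eggs start development on RNA and protein that the mother laid down during oogenesis. During the maternal-to-zygotic transition the embryo degrades much of this RNA, through RNA-binding proteins and small RNAs that recruit deadenylation and decay enzymes, while transcription from its own genome begins. Transcripts that are high in the first cleavages and low by gastrulation are therefore often described as maternal. The origin of the RNA was not measured here, and "low" is relative, since members kept between 1.67% and 24.8% of their 3 h mean at 7 h. In whole eggs, fewer cells holding a transcript and less of it per cell cannot be told apart.

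The identifiers of most members named no related protein, and sequences were not searched. A protein match stood in the identifier of 13 members (8.67%), against 42.2% of all rows of the table, and 107 (71.3%) had neither a match, a domain nor a signal peptide, against 46.3% of all rows. A predicted signal peptide, the mark of proteins that enter the secretory pathway, was present in 30 members (20%), against 15% of all rows. The 125 rows that met the conditions on 3 h and 7 h but were kept in quiescence (quiescent mean at least 2 times the 7 h mean) had a match in 8%, a signal peptide in 24% and no field in 70.4%. Members were thus close to those rows and unlike the table as a whole in these shares, which were compared without a test. Rows with a 3 h mean of at least 5 that fell less than 4 times numbered 541. They had a match in 32.3%, a signal peptide in 10.7% and no field in 59.3%. Rows were left out by domain from the members and the rows kept in quiescence only, so part of each gap was built in. A match names a related protein and does not identify the gene.

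The reads in the table came to between 4302937 and 24170764 per library, a part of the full depth because the table holds selected genes. A deposited value of 1 stood for 81.8 to 112 reads. The library labelled 42 h D stood apart from its group. Its summed value over 127 muscle rows was 347, against 1761 to 6231 in the other 42 h libraries, and over 48 cuticle rows 105, against 827 to 3340. The 2 rows matching proteins of algal feed summed to 0.0770 in it, against 0.415 to 1.10 in the other 42 h libraries. At 24 h these rows summed to 0.029 to 0.462. The lower of these sums stand for few reads, since 1 read was worth 0.0109 in 42 h D. Across the 150 members its values had a rank correlation of 0.953 with the quiescent mean and of 0.813 with the mean of 42 h A, B, C and E. The same measure, against the mean of the other 42 h libraries with D included, was 0.800 in A, 0.829 in B and 0.818 in E. It was lowest in C, at 0.521, where 53 members had a value of 0. The correlation with its own group therefore did not set 42 h D apart. The 7 h libraries had 0.923 to 0.947 with the quiescent mean, which the rule caps at 2 times the 7 h mean. The correlation of 42 h D with the 7 h mean was not computed. Quiescent libraries summed to 785 to 974 over the muscle rows, above 42 h D. Over the cuticle rows they summed to 90.2 to 166, a range that holds 42 h D. Over the algal rows they summed to 0.018 to 0.063, below 42 h D but likewise few reads. These correlations run across genes that share libraries and scaling. The 42 h comparisons below are given with and without 42 h D. Whether it is mislabelled or mixed was not tested.

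Together the members made up 5.47 to 6.89% of the table's summed value at 7 h, against 22.1 to 24.2% at 3 h. In single libraries their summed value ran from 19819 to 26817 at 3 h, from 2407 to 3490 at 7 h, from 815 to 1067 at 14 h and from 492 to 833 at 24 h. The 4 other 42 h libraries lay between 336 and 861, and 42 h D stood at 7170. Quiescent eggs summed to between 3843 and 5270, above each 7 h library and far below each 3 h library. The groups from 3 h to 14 h did not overlap, whereas 14 h overlapped slightly with 24 h.

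**Figure D1:**
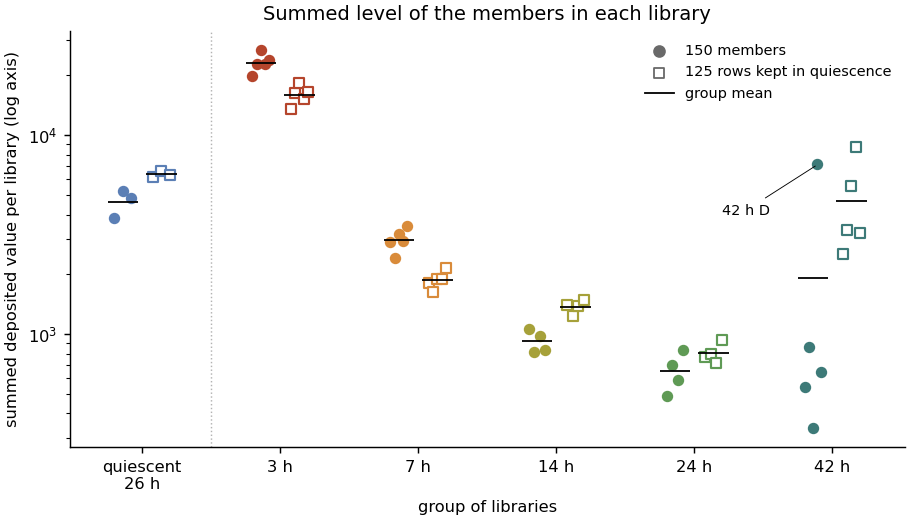
Summed deposited value (log axis) of the 150 members (filled circles) and of the 125 rows kept in quiescence (open squares) in each library, by group, with lines at the group means. Members sum to 19819 or more in each 3 h library and to 1067 or less in each 14 h library, while 42 h D reaches 7170 against 861 or less in the other 42 h libraries.

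The median member stood at 10.8% of its 3 h mean at 7 h, 4.59% at 14 h and 3.68% at 24 h. At 42 h it stood at 7.52% with all libraries and at 2.98% without 42 h D, in which alone it was 23.2%. Quiescent eggs held 15.5%. For the rows kept in quiescence the medians were 11.3% at 7 h, 4.91% at 14 h and 38.5% in quiescent eggs. At 42 h they were 48.5% in D and 2.09% without D. The medians of both sets were thus close at 7 h and 14 h, and their gap in quiescent eggs is what the rule set.

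Within single members the 7 h and 3 h libraries were well separated. In 147 of 150 members every 7 h library lay below every 3 h library, as did 23.4% of all 5201 rows that passed the filter (a value of 1 or more in 3 or more libraries). That separation was built in by the choice of members. All 150 members met this filter, through the 3 h libraries that chose them. The coefficient of variation between libraries had a median over members of 27.5% at 7 h and 15.2% at 3 h. Repeated sheet numbers in the labels may reflect 2 sequencing runs, although no label states one. Within the 2 sets of letters so formed, the 3 h mean was at least 4 times the 7 h mean in 147 members within letters A and B and in 143 within letters C, D and E. The same libraries chose the members by this fall, so high counts were built in here as well.

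**Figure D2:**
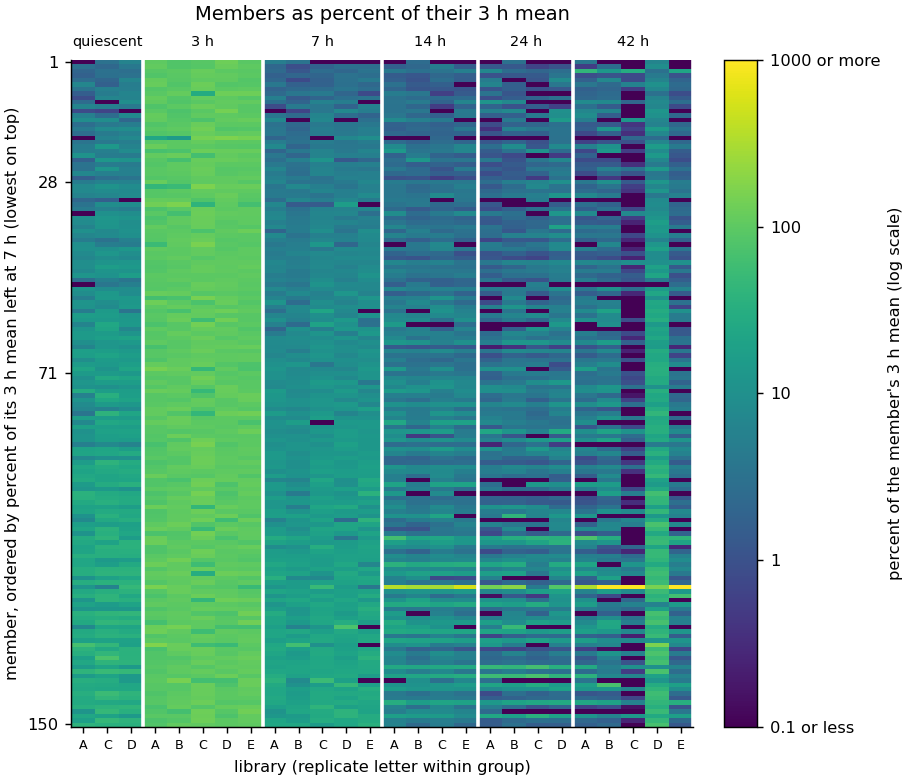
Deposited value of each of the 150 members (rows, lowest percent left at 7 h on top) in each of 26 libraries (columns), as percent of the member's 3 h mean on a log colour scale. The darkest cells are at 0.1% or less, values of 0 included. The 3 h columns are uniformly bright, 42 h D resembles the quiescent columns, and 1 row is brighter at 14 h than at 3 h (DN15106_c0_g1, 380% of its 3 h mean at 14 h), darker in 24 h C and D and bright again at 42 h.

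Members differed in how much was left at gastrulation. Under 5% of the 3 h mean was left in 28 members, 5 to 10% in 43 and 10 to 25% in 79. The ratio of 14 h to 7 h levels is given by class as a description only, because the 7 h mean both cuts the classes and divides the ratio. The median ratio of the 14 h to the 7 h mean was 0.416 in the members with 10 to 25% left, 0.600 in the middle class and 0.664 in the members with under 5% left. The 14 h mean was below the 7 h mean in 132 of 150 members. Every 14 h library lay below every 7 h library in 64 members and in 5.35% of all 5201 rows, a contrast that shares the 7 h libraries with the rule and is given without a test.

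**Figure D3:**
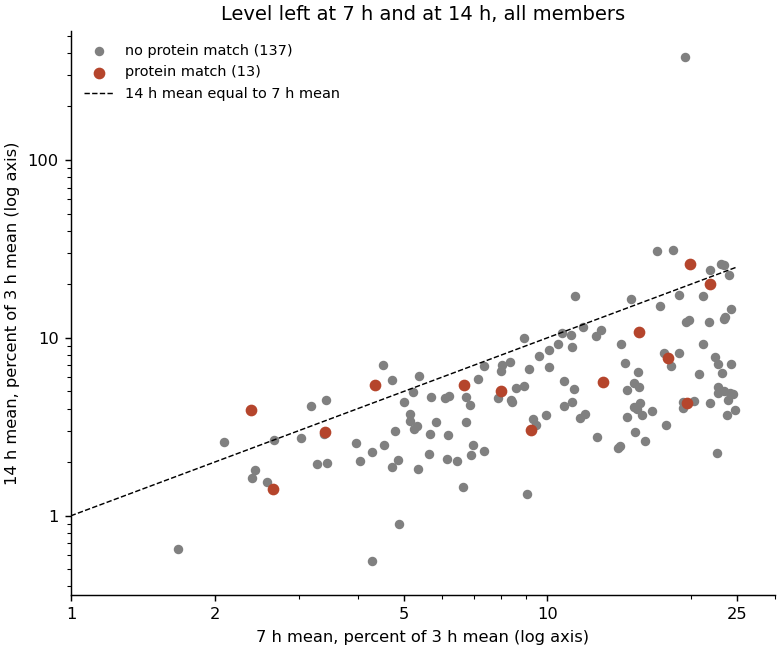
Level left at 14 h against level left at 7 h, each as percent of the 3 h mean on log axes, for the 13 members with a protein match (red) and the other 137 (grey). Points below the dashed line, 132 of 150, have a lower mean at 14 h than at 7 h, and DN15106_c0_g1 stands alone at the top.

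The same classes were followed in quiescent eggs and at 42 h. The rule caps the quiescent mean at 2 times the 7 h mean, so the order of the classes in quiescent eggs is largely set by the choice of members. Quiescent eggs held a median of 25.3% of the 3 h mean in the members with 10 to 25% left at 7 h, 10.5% in the middle class and 4.48% in the lowest. The library 42 h D held 37.5%, 14.7% and 7.04% in the same order of classes. The other 42 h libraries held 4.17%, 2.38% and 1.55%. In the authors' quiescent table, chosen on quiescent eggs against 7 h and 14 h eggs, 34, 8 and 1 of these members were listed. These were 43 of 150, with identical values in both tables. Of all 9502 rows 2689 were listed there, a like share. The quiescent mean was above the 7 h mean in 127 members. Every quiescent library lay above every 7 h library in 39 members and in 17.7% of all rows, in a contrast that the rule used.

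**Figure D4:**
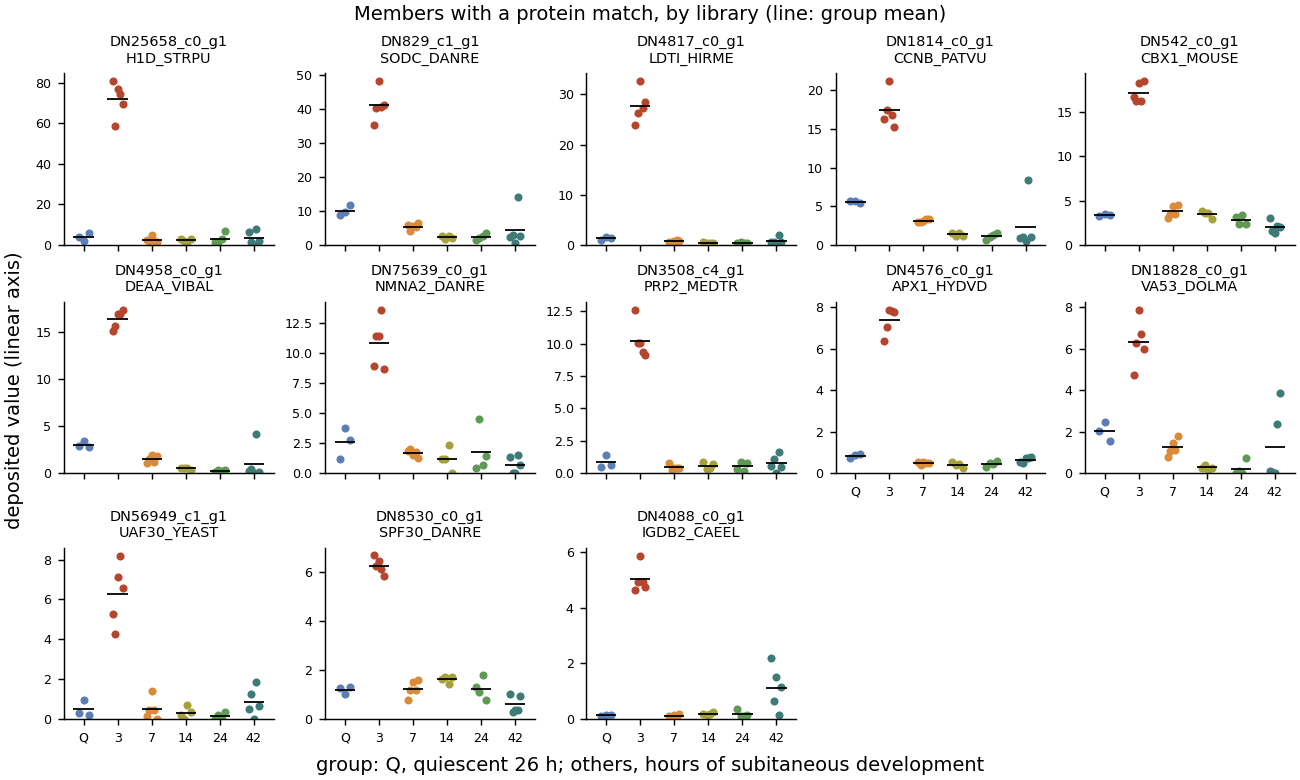
Deposited values (linear axes) of the 13 members with a protein match, a panel each, by library and group, with lines at the group means. The 3 h points stand above the others in these panels, and 42 h D is the isolated high point at 42 h for the cyclin B (CCNB), superoxide dismutase (SODC) and deacetylase (DEAA) matches.

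Among members with a match, 1 belonged to the cell cycle. DN1814_c0_g1 matched cyclin B, the partner of the kinase CDK1 that drives entry into mitosis, whose RNA is a classical maternal store of marine invertebrate eggs. Its deposited values were 2.90, 2.92, 3.07, 3.33 and 3.38 at 7 h, against 16.3, 17.4, 21.2, 16.9 and 15.3 at 3 h. They were 1.56, 1.11, 1.53 and 1.14 at 14 h and 0.682, 0.998, 1.31 and 1.50 at 24 h. At 42 h they were 0.941, 0.942, 0.434 and 1.03 in the libraries A, B, C and E and 8.44 in D. Quiescent eggs had 5.63, 5.70 and 5.39. The 3 h, 7 h and 14 h libraries did not overlap, and 42 h D lay above each quiescent library. Another cyclin B match (DN1292_c0_g1), no member, averaged 24.1 at 7 h against 43.7 at 3 h, and the cyclin A match DN5561_c0_g1 4.69 at 7 h against 11.5 at 3 h. Of 10 cell cycle rows in the table, 3 had a 3 h mean of at least 5 and DN1814_c0_g1 alone met the rule.

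Members for chromatin and the nucleus followed several courses. DN25658_c0_g1 matched a sea urchin histone H1, of the linker proteins that bind DNA between nucleosomes, but carried no domain field and so was not left out. It had 2.55, 1.77, 4.60, 2.00 and 1.42 at 7 h, against 80.8, 58.9, 77.3, 74.4 and 69.7 at 3 h, a mean of 3.42% left. A linker histone row of the left-out kind (DN4693_c1_g1) with a match to the same protein averaged 1.88 at 7 h against 61.6 at 3 h. DN542_c0_g1 matched CBX1 and CBX3, heterochromatin proteins that bind methylated histone H3. Its values were 2.98, 3.53, 4.41, 3.51 and 4.48 at 7 h, against 16.7, 16.2, 18.3, 16.3 and 18.5 at 3 h. Its mean at 14 h was 3.44 ± 0.398 (SD, n = 4). Quiescent eggs (3.36 ± 0.146, n = 3) did not exceed 7 h eggs (3.78 ± 0.644, n = 5). DN8530_c0_g1 matched SPF30, a splicing factor with the domain of the survival motor neuron protein, and had 1.25 ± 0.328 at 7 h, against 6.28 ± 0.326 at 3 h (n = 5 each). DN56949_c1_g1 matched UAF30, a yeast activator of ribosomal RNA transcription, and averaged 0.502 ± 0.541 at 7 h, against 6.28 ± 1.55 at 3 h (n = 5 each).

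The other members with a match were an assortment. DN829_c1_g1 matched copper-zinc superoxide dismutase, which removes superoxide, and carried a signal peptide. It had 5.69, 3.93, 5.42, 5.26 and 6.54 at 7 h, against 35.1, 40.3, 48.1, 40.5 and 41.1 at 3 h. Quiescent eggs had 8.86, 9.66 and 11.6, each above every 7 h library. DN4817_c0_g1 matched the leech tryptase inhibitor LDTI, a Kazal-type inhibitor of serine proteases. Its values were 0.528, 0.645, 0.749, 0.988 and 0.764 at 7 h, against 23.9, 26.3, 32.6, 27.3 and 28.4 at 3 h, with 2.65% left. Another Kazal row (DN16082_c0_g1) was left out for its reverse transcriptase domain and averaged 0.815 at 7 h against 5.26 at 3 h.

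A polysaccharide deacetylase match (DN4958_c0_g1), of enzymes that remove acetyl groups from chitin and related sugars, averaged 1.52 ± 0.370 at 7 h against 16.4 ± 0.983 at 3 h. A peroxidase match (DN4576_c0_g1) averaged 0.493 ± 0.0666 at 7 h against 7.39 ± 0.662 at 3 h, and stayed between 0.259 and 0.784 in every later subitaneous library. The venom allergen match DN18828_c0_g1, with the CAP domain of many secreted proteins, averaged 1.24 ± 0.400 at 7 h against 6.32 ± 1.14 at 3 h. Its 42 h values were 0.121, 0.0490, 0, 2.37 and 3.84, so both D and E were high there. DN75639_c0_g1 matched NMNA2, an enzyme of NAD synthesis, and averaged 1.68 ± 0.297 at 7 h against 10.8 ± 2.04 at 3 h. A proline-rich protein match (DN3508_c4_g1) averaged 0.444 ± 0.216 at 7 h against 10.2 ± 1.39 at 3 h (n = 5 each throughout).

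A domain without a protein match was present in 9 members. They included the EF-hand rows DN6341_c0_g1 and DN1790_c0_g1, with a fold that binds calcium and a predicted signal peptide. These averaged 31.3 and 9.64 at 7 h against 553 and 67.6 at 3 h. An OS-D row (DN362_c0_g1), of the insect chemosensory protein family, averaged 6.81 at 7 h against 53.8 at 3 h. An F-box row (DN9784_c0_g1), the domain that brings substrates to a ubiquitin ligase, averaged 1.13 at 7 h against 8.77 at 3 h.

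The 10 members without a match that had the highest deposited 3 h values were followed next, a rank that also depends on transcript length. They averaged between 745 and 1599 at 3 h, and they split into transcripts with little and with much left at 7 h. DN6904_c1_g1 had 343, 337, 384, 335 and 428 at 7 h, against 1371, 1481, 1847, 1552 and 1744 at 3 h, with 22.8% left. It had 106, 62.2, 84.7 and 58.0 at 14 h, while quiescent eggs had 396, 628 and 615. At 42 h it had 33.8, 55.6, 16.7 and 35.6 in A, B, C and E, and 1029 in D, far above them. DN5598_c0_g1, in contrast, had 48.2, 33.2, 62.9, 55.3 and 59.2 at 7 h, against 1255, 1444, 1863, 1488 and 1480 at 3 h, with 3.44% left. Quiescent eggs had 41.7, 61.4 and 73.6 of it, overlapping with 7 h, and 42 h D had 90.0. Of the other 8, DN10901_c2_g1, DN28538_c0_g1, DN16520_c0_g1, DN1177_c0_g1 and DN1155_c0_g1 kept between 14.2 and 24.8% at 7 h, and DN5604_c1_g1, DN1959_c0_g1 and DN5598_c0_g2 between 4.04 and 4.72%. In 42 h D the first 5 held 26.2 to 68.0% of the 3 h mean and the other 3 held 4.31 to 7.42%.

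Members of the same assembly cluster kept like shares in the 2 largest clusters. The 150 members came from 139 clusters, and 8 clusters held 19 of them. The 4 members of DN1945 kept 20.9 to 22.8% at 7 h and the 3 of DN5598 kept 3.44 to 5.23%. Clusters can hold isoforms or near copies among which reads were split, so such rows are not separate genes for certain. A cluster that also held a row kept in quiescence was found for 10 members.

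The nearest values to the thresholds were as follows. DN4088_c0_g1 and DN11435_c0_g1 were just inside the 3 h level with means of 5.02 and 5.27, and DN100937_c0_g1 and DN15609_c0_g1 just outside with 4.60 and 4.43. On the ratio of the 3 h to the 7 h mean, DN28538_c0_g1 (4.04) and DN76466_c0_g2 (4.08) were inside and DN30609_c1_g1 and DN4343_c0_g1 (both 3.94) outside. On the ratio of the quiescent to the 7 h mean, DN4958_c0_g1 and DN83175_c0_g1 (both 1.99) were inside, and DN8621_c1_g1 (2.00) and DN1155_c1_g1 (2.01) outside.

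Members are 1.58% of all rows, so lists of the sizes below would hold few of them in any case. Of 9 germ line and maternal factor rows in the table, none had a 3 h mean of at least 5. A match to the germ line helicase DDX4 (DN10564_c0_g1) averaged 0.625 at 7 h against 1.90 at 3 h, and a match to the small RNA effector AGO1 (DN9335_c0_g1) 0.341 at 7 h against 1.61 at 3 h. A single RNA decay row was listed and was not among the members. Of 55 transcription factor rows 2 met the conditions on 3 h and 7 h, the DBP match DN906_c0_g1 and the SP4 match DN7151_c0_g1, and both were kept in quiescence. Of 48 cuticle rows 3 did so, and were kept as well. No member came from 61 egg envelope, 25 signalling or 127 muscle rows. Members came from 16 protease inhibitor rows (DN4817_c0_g1) and 51 antioxidant rows (DN829_c1_g1), 1 from each.

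Whether members changed again after gastrulation was tested between 14 h, 24 h and 42 h, groups that the rule did not use. The 3 comparisons share libraries. The test was limma on log2(value + 1) over 5201 rows with 1 estimate of spread from all libraries, and a row was called at a Benjamini-Hochberg adjusted p under 0.05. Because the authors had selected the rows as differing among these samples, the calls are not independent evidence.

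For 24 h against 14 h, limma called 0 members, with 4 at an unadjusted p under 0.05. It called 2.83% of all rows higher and 9.61% lower. By edgeR and by DESeq2 on recovered reads, 1 member was lower and 0 higher. Of all 5201 rows, edgeR called 338 lower and 30 higher, and DESeq2 541 and 147. Without 42 h D, whose spread enters the shared estimate, 2 members were higher and 8 lower, against 12.9% and 16.0% of all rows. The 2 higher were DN4272_c2_g1, with a predicted signal peptide and no protein match, and DN1617_c1_g1. DN4272_c2_g1 had 4.27, 3.82, 5.64 and 3.02 at 24 h, against 2.28, 2.20, 2.27 and 2.47 at 14 h (log2 change 0.63 ± 0.22 SE, adjusted p = 0.0315), with no overlap. DN1617_c1_g1 had 4.11, 3.90, 5.37 and 2.99 at 24 h, against 1.46, 1.74, 2.08 and 2.34 at 14 h (0.80 ± 0.25, adjusted p = 0.0169). Both had been near 25% of the 3 h mean at 7 h and 14 h and reached 46.9% and 54.8% at 24 h.

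The 8 lower members were DN15106_c0_g1, DN16520_c0_g1, DN1960_c0_g1, DN5403_c1_g1, DN86883_c0_g1, DN369_c0_g1, DN141018_c0_g1 and DN6904_c1_g1, with log2 changes from -2.15 to -0.79. DN6904_c1_g1 had 42.3, 51.7, 40.0 and 39.8 at 24 h, below its 4 values at 14 h given above (-0.79 ± 0.27, adjusted p = 0.0289). Of the 8, 3 (DN16520_c0_g1, DN1960_c0_g1 and DN369_c0_g1) carried a signal peptide.

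For 42 h against 24 h, 3 members were called higher and 2 lower, against 44.9% and 5.33% of all rows. Without 42 h D it was 2 higher and 15 lower, against 62.6% and 6.21%. Members near 0 at both times can hardly be called on the log2(value + 1) scale. Whether this lowered the members' share of higher calls was not tested. With a pseudocount of 0.25, 4 members were higher and 3 lower, against 2038 and 264 of all 5201 rows. With all libraries edgeR on recovered reads called 17 members higher and 3 lower, against 1986 and 159 of all 5201 rows. DESeq2 called 25 higher and 3 lower, against 2364 and 205 of all rows. Without D edgeR called 3 higher and 14 lower, against 2754 and 252 of 5199 rows. DN15106_c0_g1, with no field in its identifier, rose most. It had 26.8, 182, 173, 12.7 and 80.7 at 42 h, against 11.7, 16.3, 0.358 and 6.92 at 24 h (log2 change 3.17 ± 0.70, adjusted p = 0.000901). Without D the change was 3.72 ± 0.64. Its 42 h libraries overlapped with 24 h through D alone. It had 29.9, 24.5, 23.7 and 45.7 at 14 h, above all of its 3 h values (12.9, 9.66, 7.29, 6.81 and 4.02), and was the 1 member whose highest mean was not at 3 h.

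DN4088_c0_g1, with an immunoglobulin domain of the kind found in adhesion and surface proteins, also rose. It had 2.18, 0.648, 1.52, 0.152 and 1.14 at 42 h, against 0.354, 0.129, 0.106 and 0.138 at 24 h (0.77 ± 0.21, adjusted p = 0.00373). The D value was the low one, and without it the change was 0.97 ± 0.15 and the 42 h mean 27.4% of the 3 h mean. The third call, DN6884_c0_g1, rested on D, with 16.0 in that library and 1.26 to 3.39 in the others, against 0 to 2.79 at 24 h. Its log2 change was 1.25 ± 0.50 (adjusted p = 0.0415), and it was not called without D (0.78). DN4272_c2_g1 fell to 2.43, 0.477, 0.910, 0.903 and 0.570 at 42 h (-1.38 ± 0.25, adjusted p = 0.000287), each below its 4 values at 24 h. DN1617_c1_g1 fell likewise (-1.34 ± 0.27, adjusted p = 0.000574). Without D the changes were -1.37 and -1.41. Without D the lower calls also included DN9751_c0_g1, DN10230_c0_g1, DN5280_c0_g1, DN158801_c0_g1, DN83175_c0_g1 and DN5403_c1_g1, with log2 changes from -1.51 to -1.02.

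For 42 h against 14 h, 1 member was called higher and 4 lower, against 44.6% and 9.06% of all rows. Without 42 h D, 2 were higher and 49 lower, against 63.7% and 12.6%. The share of lower calls among members was thus below that of all rows with D and above it without D. The median log2 change of members was -0.06 with D and -0.36 without, while that of all rows was 0.67 and 0.97. All 4 lower calls made with D were among the 49. DN8530_c0_g1, the SPF30 match, had 1.04, 0.281, 0.372, 0.370 and 0.927 at 42 h, against 1.66, 1.72, 1.42 and 1.73 at 14 h (-0.74 ± 0.21, adjusted p = 0.00628), with no overlap. DN542_c0_g1, the CBX match, had 3.01, 1.53, 1.34, 2.18 and 2.02 at 42 h, against 3.80, 3.56, 3.54 and 2.87 at 14 h (-0.58 ± 0.23, adjusted p = 0.0377), overlapping through 42 h A. The others were DN4272_c2_g1 (-0.75 ± 0.25, adjusted p = 0.0136) and DN11435_c0_g1 (-0.72 ± 0.28, adjusted p = 0.0325). Without D the changes were -0.70 for DN8530_c0_g1, -0.60 for DN542_c0_g1, -0.74 for DN4272_c2_g1 and -0.86 for DN11435_c0_g1. The calls of DN542_c0_g1 and DN11435_c0_g1 were not stable, being lost under 10 and 12 of 22 alternatives, of which 6 each left out 1 library. By edgeR, DESeq2 and both rescalings with all libraries DN11435_c0_g1 was not called. For all members edgeR gave 3 higher and 3 lower, against 1870 and 255 of all 5201 rows. DESeq2 gave 6 higher and 3 lower, against 2306 and 313 of all rows. Without D edgeR gave 1 higher and 37 lower, against 2819 and 505 of 5199 rows. DN4088_c0_g1 was the 1 member called higher (0.75 ± 0.21, adjusted p = 0.00525).

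Without 42 h D the 8 largest falls were those of DN5403_c1_g1, DN10901_c2_g1, DN1177_c0_g1, DN28538_c0_g1, DN10230_c0_g1, DN36299_c0_g1, DN16520_c0_g1 and DN83175_c0_g1, with log2 changes from -2.10 to -1.65. DN5403_c1_g1 had 1.99, 0.489, 0 and 2.64 in 42 h A, B, C and E, against 14.4, 6.60, 7.99 and 4.15 at 14 h (adjusted p = 9.74e-06), and 198 in D. DN10901_c2_g1 had 16.0, 21.8, 0.920 and 30.7 in the same 42 h libraries, against 71.7, 44.8, 54.2 and 39.8 at 14 h (adjusted p = 0.00087), and 687 in D. In both, D alone lay above the 14 h values. By level left at 7 h, 34 of the 79 members with 10 to 25%, 11 of the 43 with 5 to 10% and 4 of the 28 with under 5% were lower. These classes had median 7 h means of 4.06, 1.68 and 1.07, and a log2(value + 1) scale shows little change at values near 1. Cyclin B was not called in either fit (0.12 ± 0.36 with D and -0.35 ± 0.17 without), nor was superoxide dismutase (0.29 ± 0.40 and -0.19 ± 0.25).

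**Figure D5:**
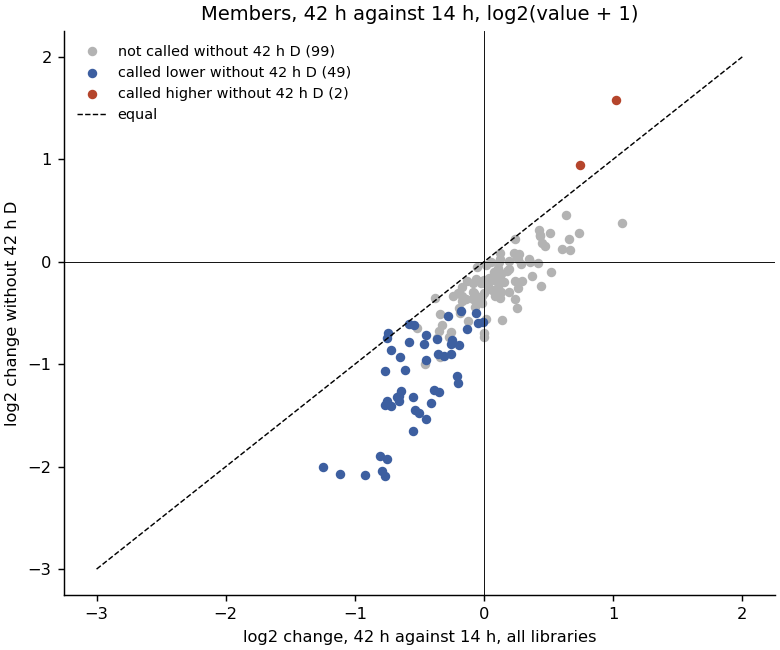
Log2 change of each member on the log2(value + 1) scale for 42 h against 14 h, with all libraries (horizontal) and without 42 h D (vertical); blue points are the 49 called lower and red points the 2 called higher without that library. Most points lie below the dashed line of equality, and the 2 red points, DN15106_c0_g1 and DN4088_c0_g1, lie above it.

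Other rows of the gene lists were tested over the same interval. Of 20 tested antioxidant rows 16 were called higher at 42 h than at 14 h (19 without 42 h D), against 44.6% (63.7%) of all rows, while the superoxide dismutase member was not called. Of 5 tested cell cycle rows 2 were lower in either fit, and so were 2 of 8 protease inhibitor rows. Without D each of these 2 lists also had 1 row called higher. Of all rows, 9.06% were lower with D and 12.6% without. In lists that hold no member, without D, 36 of 37 cuticle, 34 of 41 egg envelope and 41 of 89 muscle rows were higher. So were 5 of 7 signalling and 5 of 21 transcription factor rows. The muscle and transcription factor shares were below the 63.7% of all rows. Called lower were 0 cuticle, 1 egg envelope, 19 muscle, 1 signalling and 4 transcription factor rows, against 12.6% of all rows. With D, 9 muscle rows were higher and 21 lower.

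A pair of limits touches these calls. With the spread of the 2 groups compared alone, no member was called at 42 h against 24 h or 14 h (6 and 3 at an unadjusted p under 0.05, by limma). Of all 5201 rows, 177 were higher and 20 lower at 42 h against 24 h, and 32 and 67 at 42 h against 14 h. At 24 h against 14 h 1 member was higher and 16 lower, against 615 and 841 of all rows. The same fit without 42 h D called 2 members higher and 6 lower at 42 h against 24 h, against 2680 and 155 of all rows. At 42 h against 14 h it called 2 higher and 38 lower, against 2959 and 524. Rescaling by median ratios or quantiles brought the median change of all rows for 42 h against 14 h near 0 (0.07 and 0.14 without D), and 90 and 97 members were then lower without D. Of all 5199 rows in these fits, 1187 and 1196 were lower.

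Most members thus stayed low. In 141 of 150 the 14 h, 24 h and 42 h means were each under 25% of the 3 h mean, and in 142 without 42 h D. At 14 h, 6 members were at or above 25%, namely DN53923_c0_g1, DN4272_c2_g1, DN15106_c0_g1, DN1617_c1_g1, DN8530_c0_g1 and DN11435_c0_g1, and all of these but DN15106_c0_g1 lay between 25.5 and 31.3% at that time. At 42 h DN4482_c1_g1, DN14628_c0_g1 and DN1945_c1_g2 reached it with all libraries, at 25.3%, 27.6% and 36.5%. Without D they stood at 20.7%, 27.4% and 4.92%, and DN4088_c0_g1 joined DN14628_c0_g1 above the limit. In 131 members the highest 42 h library was D, and in 102 it was at least 4 times the mean of the other 42 h libraries. These counts were not made over all rows. The rows kept in quiescence had a median of 48.5% of the 3 h mean in D and 2.09% in the others. For the 541 rows that fell less than 4 times by 7 h it was 52.6% in D and 170% in the others.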

How the data were processed

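Total RNA from batches of whole eggs was sequenced in 26 libraries. Per the labels, the authors selected the rows of the deposited table as differing among all subitaneous samples (alpha 0.001, fold change 2), so calls are made on preselected rows. Tools named in the submitters' processing notes are bcl2fastq and edgeR. For the aligner, counting, assembly and scaling, the tool is not given in the sources used here. Values as deposited are normalized signal values, not per length, so levels were compared between samples. A rank by 3 h value served only to choose members to name. Within a library 1 read was worth 1 fixed value, and among values worth at most 2000 reads 100% came within 0.1 of a whole read. Reads recovered in this way served for edgeR and DESeq2 as alternatives. Recovered reads in members came to between 32507 and 2328809 per library. Columns outside the 26 libraries numbered 0.

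Members and gene lists were chosen with earlier results of these data known. Values of 3 h, 7 h and quiescent libraries chose the members, so they are described without a test. The design planned an edgeR test for raw counts; the values are normalized, so limma 3.58.1 (R 4.3.3, eBayes with trend and robust) on log2(value + 1) was used, on rows that reached a value of 1 in 3 or more libraries, with a group term and Benjamini-Hochberg adjustment over all 5201 rows, checked on simulated data. Alternatives were a pseudocount of 0.25, no filter, edgeR 4.0.16, DESeq2 1.42.0, median-ratio and quantile rescaling, a replicate term, a term for letters A and B against the others (runs inferred, not stated), 2 groups alone, and leaving out libraries. Samples sharing a replicate letter did not deviate together in every pair (correlation of deviations from -0.47 to 0.32), so letters were not taken as pairs. Named in the text are the members with a protein match, the 10 others with the highest 3 h mean, up to 8 called members per comparison and direction with the largest change, those nearest a threshold, those in a list and those sharing an assembly cluster. Members named for their domain or later course, and rows outside the set, were chosen after their values were seen. Sequences and genome coordinates were not used here.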

Additional observations from a re-analysis of the deposited data

Results flagged for a closer look

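A sample far from the others in its group was looked for in 150 groups, over the summed values and the 28 members followed library by library. It was found in 25, of which 14 were the library labelled 42 h D. The gap between a group's highest or lowest sample and its neighbour was set against the group's range by Dixon's criterion, which by construction flags about 1 in 20 groups by chance. The members share libraries, so the groups are not separate trials. In 42 h D the members' summed value was 7170 and their share of all summed values was 9.32%. High values in that library were 14.2 for the superoxide dismutase match DN829_c1_g1, 1.97 for the Kazal inhibitor DN4817_c0_g1, 8.44 for cyclin B (DN1814_c0_g1) and 4.13 for the deacetylase match DN4958_c0_g1. Among members without a match, 42 h D stood alone with 1029 for DN6904_c1_g1, 391 for DN1155_c0_g1, 687 for DN10901_c2_g1, 671 for DN28538_c0_g1, 483 for DN16520_c0_g1, 64.4 for DN5598_c0_g2, 195 for DN1177_c0_g1 and 16.0 for DN6884_c0_g1. What set this library apart was not tested.

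The other 11 were spread over groups. High values were 0.563 for DN4817_c0_g1 and 27.4 for DN5604_c1_g1 in 14 h A, 55.2 for DN16520_c0_g1 in 14 h C, 29.3 for DN28538_c0_g1 in 24 h B, 0.733 for DN18828_c0_g1 in 24 h D and 0.354 for DN4088_c0_g1 in 24 h A. At 42 h, DN4272_c2_g1 reached 2.43 in A. At 7 h, DN15106_c0_g1 reached 4.07 in C. At 3 h, DN3508_c4_g1 reached 12.6 in A and DN4088_c0_g1 reached 5.87 in C. The 1 low value was 0.376 for DN4958_c0_g1 in 14 h E.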

How the results depend on the processing

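The choice of 150 members depended most on the condition on quiescent eggs, without which 275 rows met the rule. Leaving out 1 library gave 130 to 160, median-ratio rescaling 172 (140 shared) and quantile normalization 109 (81 shared). The median level left at 14 h, 4.59% of the 3 h mean, was 2.09% after median-ratio rescaling. With a limit of 10% in place of 25%, 89 members stayed low in place of 141. For 24 h against 14 h, the 0 higher and 0 lower calls became 2 and 1 after quantile normalization, 1 and 16 with the 2 groups alone, 0 and 1 by edgeR, by DESeq2 and after median-ratio rescaling, and 0 and 6 by edgeR without 42 h D. Leaving out 1 library gave 0 to 2 higher and 0 to 8 lower, where 24 h B gave 1 lower and 42 h D the upper values. For 42 h against 24 h, the 3 higher calls became 17 by edgeR, 25 by DESeq2, 1 after quantile normalization with or without 42 h D, and 0 with the 2 groups alone. The 2 lower calls became 5 after quantile normalization and 0 with the 2 groups alone, and without 42 h D they became 6 with the 2 groups alone, 14 by edgeR, 75 after median-ratio rescaling and 96 with quantiles made equal. Leaving out 1 library gave 2 to 7 higher (5 without 42 h A, 7 without 42 h C, 5 without 42 h E) and 2 to 15 lower (15 without 42 h D). For 42 h against 14 h, the 1 higher call became 3 by edgeR, 6 by DESeq2 and 0 after either rescaling or with the 2 groups alone. The 4 lower calls became 0 with the 2 groups alone, and without 42 h D they became 38 with the 2 groups alone (2 higher), 37 by edgeR, 90 after median-ratio rescaling and 97 with quantiles made equal. Leaving out 1 library gave 1 to 3 higher (3 without 42 h A or C, 2 without D) and 2 to 49 lower (49 without D, and 2 without 14 h A, 14 h C, 42 h B, 42 h C or 42 h E). DN6884_c0_g1 at 42 h against 24 h turned to -0.0016 after median-ratio rescaling and to -0.13 after quantile normalization, both without 42 h D. The causes were not tested. Calls among all rows moved under the same settings. For 24 h against 14 h, 795 of 5201 were higher and 648 lower after quantile normalization, and 507 and 747 after median-ratio rescaling. By edgeR without 42 h D, 516 of 5199 were higher and 664 lower. Leaving out 24 h B gave 65 of 5186 higher and 453 lower. For 42 h against 24 h, 2337 of 5201 rows were higher and 277 lower in the main fit. After quantile normalization 1055 were higher and 840 lower. Leaving out 42 h A, C and E in turn gave 2151 of 5005, 1443 of 4618 and 1770 of 4757 higher. Without 42 h D, 1043 of 5199 were lower after median-ratio rescaling and 1274 with quantiles made equal. In the latter fit 1536 were higher. For 42 h against 14 h, 1003 of 5201 were higher and 682 lower after median-ratio rescaling, and 1087 and 754 after quantile normalization. Leaving out 42 h A and C in turn gave 2023 of 5005 and 1233 of 4618 higher. Lower were 376 of 5170 without 14 h A and 374 of 5169 without 14 h C. Leaving out 42 h B, C and E in turn gave 411 of 4674, 411 of 4618 and 414 of 4757 lower. Of 220 values for single members under alternatives, 173 kept their call, 45 lost it and 2 reversed. DN6884_c0_g1 accounts for 12 of the losses, DN11435_c0_g1 for 12 and DN542_c0_g1 for 10. Alternatives that combine another choice with leaving out 42 h D were chosen after seeing the data. The replicate block left the counts as they were, at 0 and 0, 3 and 2, and 1 and 4, although DN542_c0_g1 at 42 h against 14 h lost its call under it (-0.57). A value of 1 stood for 81.8 to 112 reads, and values near 0 for fewer. The 1 added before taking log2 also damps changes at such low values.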
